A study of Mus musculus with 6 samples.

Results

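*Psrc1*, *Celsr2*, *Sort1*, *Psma5*, *Sars* and *Mybphl* are 6 neighbouring genes on mouse chromosome 3, taken here from the 20856 genes with RNA-seq values in cell lines from mouse liver tumors. *Psrc1* was chosen by its measured values, because its level was higher in *Kmt2c*-targeted than in *Trp53*-targeted lines, and the other 5 were chosen because they lie next to it. The comparison asked whether the higher level was confined to *Psrc1* or shared by the genes around it. Since *Psrc1* was selected on this same contrast, its values are described and not tested.

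The tumors arose in C57BL/6 mice after hydrodynamic tail vein injection, which carries plasmids into liver cells. Every mouse received a transposon that expresses *Myc* and a px330 plasmid with Cas9 and a guide RNA. The guide was directed against *Trp53* in 3 lines, labelled Myc;sgp53/Cas9 and called sg*Trp53* below, and against *Kmt2c*, which encodes the histone methyltransferase MLL3, in 3 lines labelled Myc;sgMll3/Cas9 and called sg*Kmt2c*. All 6 lines were untreated and were grown on collagen until fibroblasts were no longer seen. The lines are described as independent, so they differ by more than the targeted gene, and neither group has both genes intact. In the labels, sg*Kmt2c* replicates 2 and 3 also carry the names 2A and 2T1, and whether these came from the same mouse is not given in the sources used here. With those replicates averaged into 1 sample, no gene of the table was called.

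This stretch of the genome is best known in humans, where common variants near these genes are linked to LDL cholesterol in blood, with *SORT1* and *PSRC1* named as liver genes of interest. PSRC1, also called DDA3, is a proline- and serine-rich protein that binds microtubules and works in the mitotic spindle, and its gene has been described as inducible by p53. CELSR2 is a large cadherin of the planar cell polarity pathway. Sortilin, encoded by *Sort1*, carries proteins between the Golgi, the cell surface and lysosomes. *Psma5* encodes an alpha subunit of the 20S proteasome, *Sars* the cytosolic seryl-tRNA synthetase, and *Mybphl* a myosin-binding protein known from heart muscle.

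In GRCm38 coordinates of the deposited table, the genes follow each other as *Psma5* (chr3:108256926-108279974), *Sort1* (chr3:108284082-108361511), *Mybphl* (chr3:108364911-108380057), *Psrc1* (chr3:108383839-108388231), *Celsr2* (chr3:108390851-108415552) and *Sars* (chr3:108424865-108445209). *Psrc1* is the shortest of them, and 2619 bases separate its end from *Celsr2*, which is read from the opposite strand. The predicted gene *Gm12522* ends 97 bases before *Psrc1* and overlaps *Mybphl* by 781 bases, while *Gm12523* overlaps *Sort1* by 762 bases. No listed gene overlaps *Psrc1*, *Celsr2*, *Psma5* or *Sars*. The library kit does not mark the strand, so reads of overlapping genes cannot be told apart.

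The promoter of *Psrc1* is shown because *Psrc1* is the gene of the stretch that was chosen for its higher level, with the promoter of *Celsr2*, its nearest neighbour by distance between tested genes, for comparison. RefSeq promoter windows (GRCm38.p6) cover 250 bases before and 50 bases after a transcript start, and they were found for 5 of the 6 genes, namely all but *Sort1*. The windows below are chr3:108383554-108383853 on the plus strand for *Psrc1* and chr3:108415530-108415829 on the minus strand for *Celsr2*, each 5′ to 3′ in the direction of its gene. Capitals mark matches to any of the letters searched on both strands, which were the E-box CACGTG, the CCAAT box CCAAT, the GC box GGGCGG, the cell cycle homology region TTTGAA or TTCGAA, and the p53 half-site by its consensus.
Psrc1: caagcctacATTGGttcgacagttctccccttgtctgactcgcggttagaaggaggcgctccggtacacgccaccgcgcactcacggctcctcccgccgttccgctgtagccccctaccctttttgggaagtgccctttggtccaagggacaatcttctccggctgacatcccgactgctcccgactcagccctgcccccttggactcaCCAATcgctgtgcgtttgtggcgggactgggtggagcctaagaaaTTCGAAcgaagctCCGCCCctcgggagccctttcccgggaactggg
Celsr2: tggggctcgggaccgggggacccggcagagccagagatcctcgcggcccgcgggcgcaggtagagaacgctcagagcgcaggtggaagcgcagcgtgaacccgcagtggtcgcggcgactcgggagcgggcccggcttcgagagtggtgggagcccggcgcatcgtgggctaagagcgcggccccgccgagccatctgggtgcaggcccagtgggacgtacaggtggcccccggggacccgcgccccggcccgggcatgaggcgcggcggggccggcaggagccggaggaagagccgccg

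The *Psrc1* window held 2 CCAAT boxes, 1 GC box and 1 cell cycle homology region, the last of these just before the GC box. A second *Psrc1* window (chr3:108383588-108383887), for a start slightly further along, held 1 CCAAT box and the same GC box and cell cycle homology region. The *Celsr2*, *Psma5* and *Mybphl* windows held no match, and the *Sars* window held 1 GC box. No E-box and no p53 half-site was matched in any window of the 5 genes. Of all 32851 RefSeq promoter windows, 37.4% held a CCAAT box, 35.7% a GC box, 19.2% a cell cycle homology region, 7.15% an E-box and 8.36% a p53 half-site, so each motif found in *Psrc1* is common. The matches are letters in a window and say nothing of binding.

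Levels are given as RPKM, reads per kilobase of transcript scaled to all reads counted on genes in the library. Comparisons between genes rest on the transcript length listed for each gene, which was not checked. It is 1118 bases for *Apob* and 431 bases for *Hnf4a*, for example. The reads behind each value were recovered from the RPKM, as described under the processing. The libraries held 5312182 to 6878625 reads on genes with sg*Trp53* and 3680068 to 4704539 with sg*Kmt2c*, so the latter were shallower in every case. A check of the targeted genes showed *Trp53* at 17.2, 17.6 and 19.4 RPKM with sg*Trp53* and at 92.2, 124 and 121 RPKM with sg*Kmt2c*, while *Kmt2c* ranged from 18.4 to 24.2 and from 9.51 to 25.0 RPKM, which overlap, so the RNA level of *Kmt2c* does not separate the labels. *Myc* ranged from 47.1 to 98.1 RPKM with sg*Trp53* and from 57.0 to 90.9 RPKM with sg*Kmt2c*. The label of a liver tumor line was checked on marker genes. The 3 epithelial markers *Krt8*, *Krt18* and *Cdh1* summed to 24.3 to 776 RPKM with sg*Trp53* and to 230 to 3918 RPKM with sg*Kmt2c*, and the 8 hepatocyte markers to 21.3 to 70.1 and to 2.27 to 5615 RPKM, with albumin (*Alb*) at no more than 4.36 RPKM in any line. In sg*Kmt2c* replicate 1, *Apob* (4385 RPKM) and *Hnf4a* (1186 RPKM) made up most of the hepatocyte sum. The 6 liver progenitor and biliary markers summed to 91.2 to 1009 RPKM with sg*Trp53* and to 91.7 to 3487 RPKM with sg*Kmt2c*. The 6 fibroblast markers summed to 15.0 to 985 and to 0.282 to 149 RPKM, and the 4 endothelial markers stayed at or below 0.284 RPKM. The 4 immune markers summed to 2.95 to 7.83 and to 1.82 to 5.35 RPKM.

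*Psrc1* stood at 9.63, 10.0 and 8.35 RPKM with sg*Trp53* and at 66.1, 77.4 and 88.8 RPKM with sg*Kmt2c*. The lowest sg*Kmt2c* line lay far above the highest sg*Trp53* line, and the lines of a group lay close together. The means were 9.34 ± 0.878 RPKM and 77.4 ± 11.4 RPKM (SD, n = 3 each), a ratio of 8.29 and a log2 fold change of 2.92 on the log2(RPKM + 1) scale. The values rested on 99, 90 and 97 reads in the sg*Trp53* libraries and on 525, 481 and 640 reads in the shallower sg*Kmt2c* libraries. Leaving out any library kept the log2 fold change between 2.81 and 3.02.

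**Figure D1:**
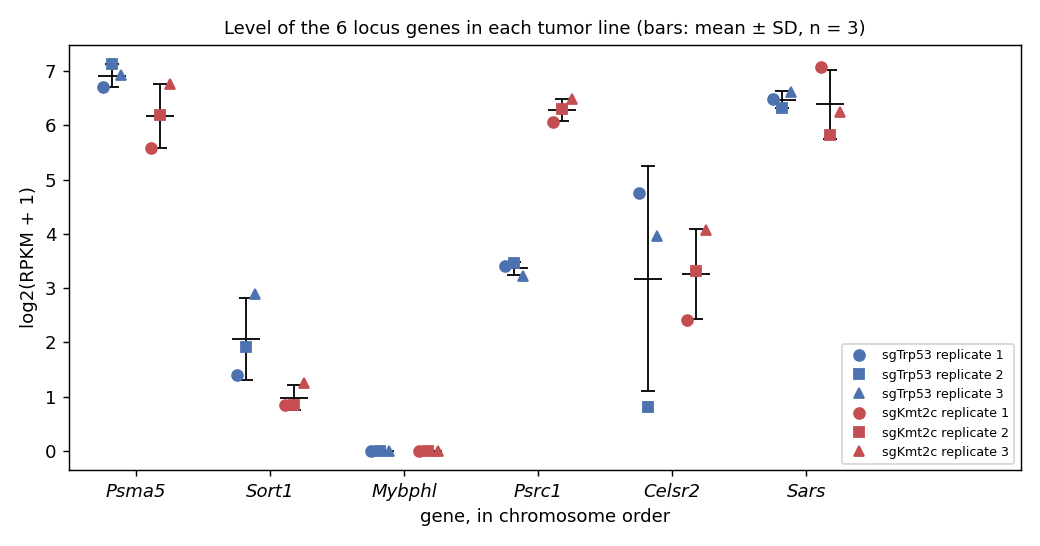
Level of the 6 genes as log2(RPKM + 1) on the vertical axis, in chromosome order on the horizontal axis, with a point per line (blue sg*Trp53*, red sg*Kmt2c*), and a black bar for the mean ± SD of each 3 lines. Only for *Psrc1* do all red points lie above all blue ones; for *Sort1* they lie below, and *Mybphl* is at 0 throughout.

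On the side of *Psrc1* where it begins, *Sort1* was low in every line. It was measured at 1.63, 2.75 and 6.43 RPKM with sg*Trp53*, from 68, 100 and 303 reads, and at 0.807, 0.794 and 1.37 RPKM with sg*Kmt2c*, from 26, 20 and 40 reads. All sg*Kmt2c* lines thus lay below all sg*Trp53* lines, the direction opposite to *Psrc1*. The same held for 10.4% of all genes tested and for 32.5% of those on chromosome 3 over 1 Mb from *Psrc1*. Of the sg*Kmt2c* lines only replicate 3 reached 1 RPKM. *Sort1* therefore met the level for testing, 1 RPKM in 3 or more libraries, through the sg*Trp53* lines, where it was higher. The log2 fold change was -1.09 ± 0.432 (SE), with a 95% confidence interval of -2.12 to -0.05, and did not pass correction in limma (adjusted p = 0.573). An exact two-sided permutation test gave p = 0.1, the smallest that 3 lines against 3 allow. Without sg*Trp53* replicate 3, the highest line, the log2 fold change was -0.67.

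*Psma5* was an abundant gene, at 103, 139 and 120 RPKM with sg*Trp53* and at 46.9, 71.6 and 108 RPKM with sg*Kmt2c*. Replicate 3 of the sg*Kmt2c* lines lay within the range of the sg*Trp53* lines, and the other sg*Kmt2c* lines lay below it. The log2 fold change was -0.74 ± 0.321 (SE), with an interval of -1.5 to 0.03 (limma adjusted p = 0.592, exact permutation p = 0.2). Its size rested on single lines, since it was -0.44 when sg*Kmt2c* replicate 1 was left out and -1.03 when replicate 3 was.

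*Mybphl* was listed at 0 in all 6 libraries and was not tested. At the depth of these libraries, 3 reads would have given 0.342 to 0.443 RPKM with sg*Trp53* and 0.5 to 0.639 RPKM with sg*Kmt2c*, which is the level a count of 0 allows. *Gm12522*, the predicted gene between *Mybphl* and *Psrc1*, stayed at or below 0.462 RPKM in every line.

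On the other side of *Psrc1*, *Celsr2* varied more between lines than any other of these genes. Its RPKM was 25.8, 0.763 and 14.6 with sg*Trp53*, from 1668, 43 and 1064 reads, and 4.31, 8.91 and 15.8 with sg*Kmt2c*, from 215, 348 and 714 reads. The sg*Kmt2c* values all fell inside the range of the sg*Trp53* lines, because sg*Trp53* replicate 2 was almost without *Celsr2*. The same line had the lowest epithelial marker sum of the 6 (24.3 RPKM, against 230 to 3918 in the others) and the highest fibroblast marker sum (985 RPKM, against 0.282 to 163). Of that fibroblast sum, *Col3a1* alone gave 814 RPKM. *Col1a2* and *Pdgfrb* were also highest in this line, while *Col1a1* and *Dcn* were not. The line with the highest epithelial sum (3918 RPKM) and the lowest fibroblast sum (0.282 RPKM), sg*Kmt2c* replicate 1, had the second lowest *Celsr2* (4.31 RPKM). The part of these markers in the level of *Celsr2* was not tested, and in bulk RNA fewer cells with *Celsr2* and less *Celsr2* RNA per cell cannot be told apart. The mean RPKM of *Celsr2* was 13.7 ± 12.5 with sg*Trp53* and 9.66 ± 5.76 with sg*Kmt2c* (SD, n = 3 each), a ratio of 0.704, while the mean on the log scale ran the other way. Its log2 fold change was 0.09 ± 1.02 (SE), with an interval of -2.35 to 2.53 (limma adjusted p = 0.982, exact permutation p = 0.9). Its direction depended on single lines: it was -1.09 when sg*Trp53* replicate 2 was left out, -0.32 without sg*Kmt2c* replicate 3, and 0.87 without the first sg*Trp53* line. With so wide an interval, a change of *Celsr2* within it was not detectable in either direction. The 2.92 of *Psrc1* lay above the interval on this scale, but *Psrc1* was chosen on this contrast, so no conclusion is drawn from it. The log2(RPKM + 1) scale also understates changes of low values, such as the 0.763 RPKM of sg*Trp53* replicate 2. With voom the log2 fold change of *Celsr2* was 0.39, and no interval is given for that fit.

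*Sars* was at 88.7, 78.8 and 97.2 RPKM with sg*Trp53* and at 134, 55.8 and 75.2 RPKM with sg*Kmt2c*. The sg*Kmt2c* lines lay on both sides of the sg*Trp53* lines, and both means were 88.3 RPKM (SD 9.21 and 40.7, n = 3 each). The log2 fold change was -0.09 ± 0.329 (SE), with an interval of -0.88 to 0.70 (limma adjusted p = 0.940, exact permutation p = 0.8). It was 0.19 when sg*Kmt2c* replicate 2 was left out and -0.44 when replicate 1 was, so these lines set its direction.

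Of the 5 neighbours, 4 reached the level required for testing, at or above 1 RPKM in 3 or more libraries, and none of the 4 passed an adjusted p of 0.05, which 0.129% of the 11617 genes tested did. At an unadjusted p under 0.05 only *Sort1* was counted, in the lower direction, where 5.34% of all genes tested were counted. The voom fit on the recovered reads called none of the 4 by either threshold, against 0.0258% of all genes at an adjusted p of 0.05 and 3.92% at an unadjusted p under 0.05 in the lower direction.

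Ratios of *Psrc1* to its neighbours within a library do not depend on how the libraries are scaled. *Psrc1* was 0.0934, 0.0722 and 0.0695 times the level of *Psma5* with sg*Trp53* and 1.41, 1.08 and 0.819 times with sg*Kmt2c*. Against *Sars* the ratio was 0.109, 0.127 and 0.0859, and then 0.493, 1.39 and 1.18. Against *Sort1* it was 5.90, 3.65 and 1.30, and then 81.9, 97.5 and 64.9. In each of these ratios the groups lay apart, with the sg*Kmt2c* lines higher. Against *Celsr2* the groups overlapped, with 0.373, 13.2 and 0.573 with sg*Trp53* and 15.3, 8.69 and 5.63 with sg*Kmt2c*, because of the low *Celsr2* of sg*Trp53* replicate 2. *Psrc1* made up 3.38% to 4.34% of the summed RPKM of the 6 genes with sg*Trp53* and 26.2% to 36.1% with sg*Kmt2c*. These ratios use the same contrast by which *Psrc1* was chosen and are a description.

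The order of the levels changed accordingly. In the sg*Trp53* lines *Psma5* was highest and *Sars* second in every line, and their ranges did not overlap. *Celsr2*, *Psrc1* and *Sort1* came below them, where *Psrc1* was above *Sort1* in every line and the range of *Celsr2* spanned both. In the sg*Kmt2c* lines *Psrc1* was the most abundant of the 6 in replicate 2 and second in replicates 1 and 3, and the ranges of *Sars*, *Psrc1* and *Psma5* overlapped. *Celsr2* lay below these 3 and *Sort1* below *Celsr2*, each without overlap.

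The stretch was then widened to 1 Mb on either side of *Psrc1*, which held 52 other listed genes, 27 of them tested. None of the 27 was called at an adjusted p of 0.05 by limma (background 0.129%) or by voom (background 0.0258%), backgrounds at which a set of this size would mostly hold no call. Their log2 fold changes ran from -1.38 for *Csf1*, which encodes a macrophage growth factor, to 0.10 for *Gpsm2*, which encodes a protein that orients the spindle. The values were below 0 for 24 of the 27, against 58% of all genes tested, and for 22 to 24 under the other scalings, and their median was -0.43 against -0.09 over all genes tested. At an unadjusted p under 0.05, 10 of the 27 were counted in the lower direction (background 5.34%) and none in the higher (background 3.25%). By voom, 4 were counted in the lower direction (background 3.92%) and none in the higher. In 11 of the 27 all sg*Kmt2c* lines lay below all sg*Trp53* lines (background 10.4%), and in none did they all lie above (background 5.72%).

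**Figure D2:**
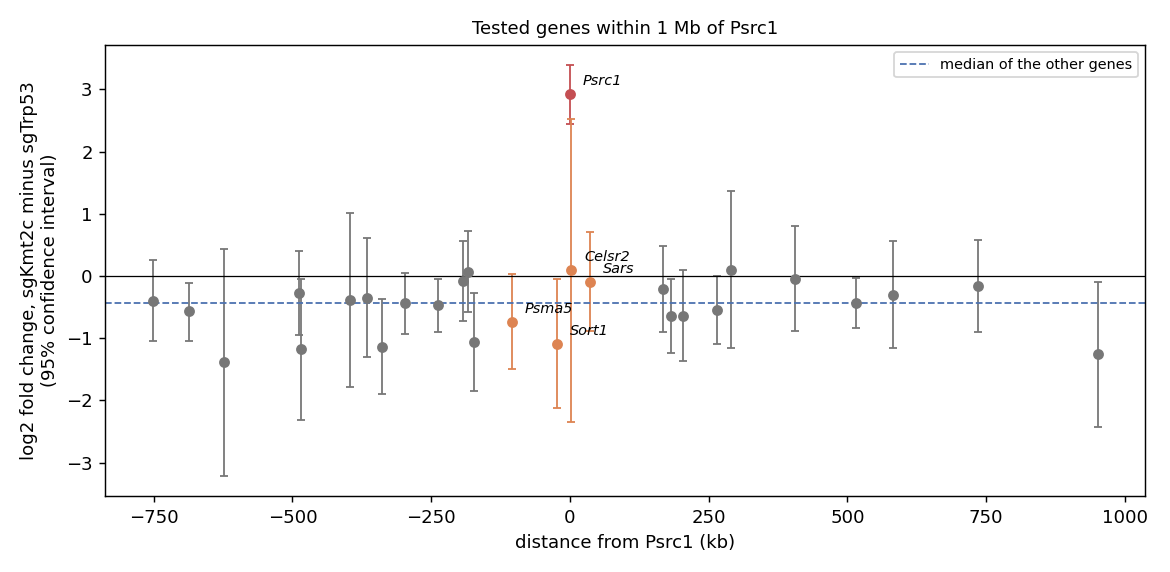
Log2 fold change (sg*Kmt2c* minus sg*Trp53*) of the tested genes within 1 Mb of *Psrc1* on the vertical axis, with limma's 95% confidence interval, against the distance from *Psrc1* in kb on the horizontal axis. *Psrc1* (red) stands at 2.92, its tested neighbours among the 6 genes are orange, and the dashed line is the median of the others, -0.43.

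Close to the 6 genes, few others were expressed. Before *Psma5* lie *Sypl2*, at or below 0.0710 RPKM in every line, and *Atxn7l2*, which encodes a relative of ataxin-7. *Atxn7l2* was at 11.2, 10.9 and 15.3 RPKM with sg*Trp53* and at 3.75, 4.67 and 8.57 RPKM with sg*Kmt2c*, lower in all 3, with a log2 fold change of -1.06 (limma adjusted p = 0.465). *Gm12523* reached at most 0.391 RPKM. Beyond *Sars*, the genes *5330417C22Rik*, *1700013F07Rik* and *Scarna2* stayed at or below 0.915 RPKM. *Tmem167b* was the first expressed gene on that side, at 12.7, 21.1 and 15.9 and at 18.7, 12.8 and 11.1 RPKM, with overlapping groups and a log2 fold change of -0.21 (limma adjusted p = 0.822). Thus on both sides of *Psrc1* the nearest expressed genes either overlapped between the groups or were lower with sg*Kmt2c*.

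Lower values were not limited to this stretch. Over the other 542 tested genes of chromosome 3, 446 had a log2 fold change below 0 and the median was -0.40, close to the -0.43 near *Psrc1*. All sg*Kmt2c* lines lay below all sg*Trp53* lines in 176 of the 542, or 32.5%, and above in 4. Chromosome 3 had the lowest median of the 20 chromosomes compared, followed by chromosome 4 at -0.33, while chromosome X was highest at 0.18. Set against each gene's mean over the 6 lines, the genes within 1 Mb of *Psrc1* had medians of 0.14, 0.33 and 0.23 with sg*Trp53* and of -0.30, -0.30 and -0.18 with sg*Kmt2c*. For the rest of chromosome 3 the medians were 0.14, 0.30 and 0.18 and then -0.21, -0.35 and -0.05, and for the other chromosomes they lay between -0.10 and 0.07 in all 6 lines. The comparison of chromosomes was added after these values were seen, and genes of a chromosome are not independent of each other.

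**Figure D3:**
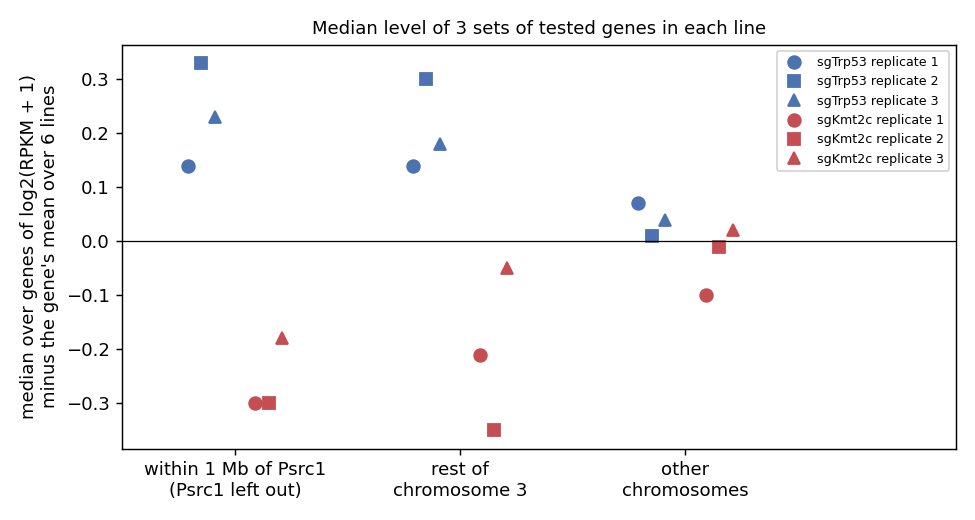
Median, over the genes of each set, of log2(RPKM + 1) minus the gene's mean over the 6 lines (vertical axis), with a point per line for genes within 1 Mb of *Psrc1*, the rest of chromosome 3 and all other chromosomes (horizontal axis). On chromosome 3 all sg*Kmt2c* points (red) lie below 0 and all sg*Trp53* points (blue) above. For the other chromosomes, pooled although single ones shift in both directions, both lie between -0.10 and 0.07.

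Among all genes tested, the 5 whose log2(RPKM + 1) followed that of *Psrc1* most closely over the 6 lines were *Btg2* (Pearson r = 0.998), *Ccng1* (0.997), *Trp53* (0.995), *B230206L02Rik* (0.994) and *Nt5c* (0.994). None of them lies on chromosome 3. *B230206L02Rik* rested on 1 read in each sg*Trp53* library and on 6 reads in each sg*Kmt2c* library. It reached 1 RPKM in the sg*Kmt2c* lines only, so it was among the genes tested through the group where it is high. *Btg2* encodes an antiproliferative protein, *Ccng1* cyclin G1, and *Nt5c* a nucleotidase. With 3 lines in each group, such a correlation largely records the distance between the groups, and it is a description. The neighbours gave 0.04 (*Celsr2*), -0.18 (*Sars*), -0.65 (*Psma5*) and -0.77 (*Sort1*). *Ccng1*, for example, was at 16.5, 19.4 and 17.4 RPKM with sg*Trp53* and at 139, 134 and 191 RPKM with sg*Kmt2c*, a log2 fold change of 3.03, close to the 2.92 of *Psrc1*.

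Since *Psrc1* has been described as a gene that p53 induces, 19 other known p53 target genes were read in the same fit. Neither group has both targeted genes intact. An effect of targeting *Trp53* therefore cannot be told apart here from an effect of targeting *Kmt2c*, and neither was tested for *Psrc1*. The p53 target list was chosen with earlier results of these data known, so its counts are a description. *Ccng1* (limma adjusted p = 0.00963) and *Eda2r*, which encodes a TNF receptor family member (log2 fold change 3.62, limma adjusted p = 0.0359), were higher with sg*Kmt2c*, and no other member passed correction (background 0.129%). *Eda2r* was at 2.04, 0.356 and 0.702 RPKM with sg*Trp53*, from 59, 9 and 23 reads, and at 28.2, 23.7 and 17.1 RPKM with sg*Kmt2c*. With sg*Trp53* only replicate 1 reached 1 RPKM, so *Eda2r* entered the test through the sg*Kmt2c* lines, and its call is a description. In 18 of the 19 the log2 fold change was above 0, as under every scaling tried, the median was 1.53 against -0.09 over all genes tested, and in 13 the lowest sg*Kmt2c* line exceeded the highest sg*Trp53* line (background 5.72%). *Cdkn1a*, which encodes the cell cycle inhibitor p21, had the largest value, 3.84, and was at 17.3, 7.54 and 36.1 RPKM and at 295, 217 and 261 RPKM, but did not pass correction (limma adjusted p = 0.068). *Sesn1* alone was below 0, at -0.85, with overlapping groups. Both calls were lost in most fits that left out a library. Over all genes tested, these fits called 8 without sg*Kmt2c* replicate 1 and 0 without any other line, against 15 with all 6 lines. *Eda2r* was not called in any of the 6 fits that left out a library, and *Ccng1* only without sg*Kmt2c* replicate 1, while their log2 fold changes stayed between 3.37 and 3.96 and between 2.87 and 3.13.

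**Figure D4:**
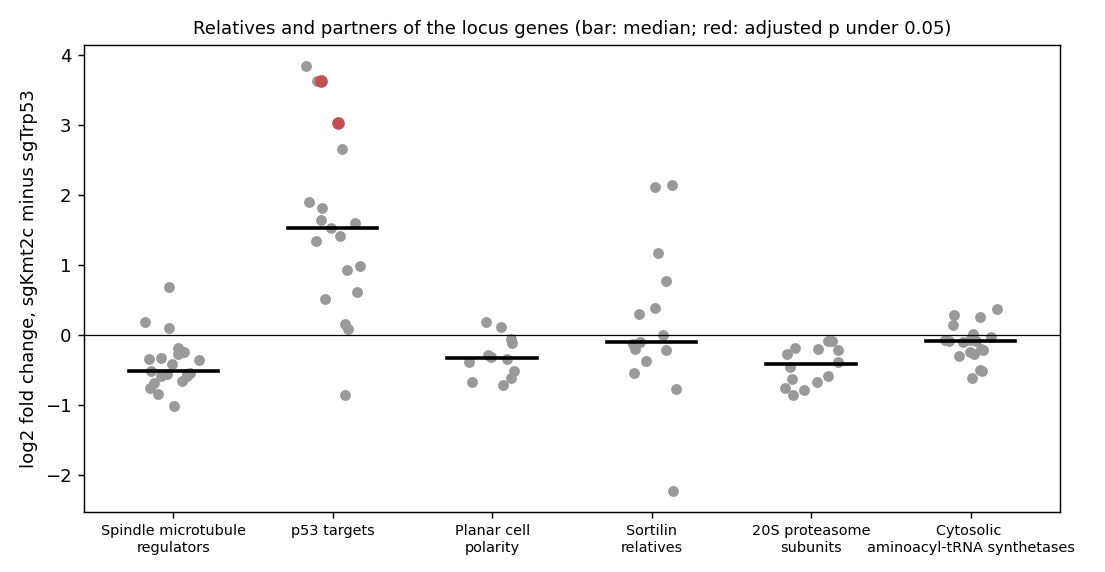
Log2 fold change (sg*Kmt2c* minus sg*Trp53*, vertical axis) of the tested genes of the 6 lists with tested members (horizontal axis), with a point per gene, a bar at each list's median, and red for genes with a limma adjusted p under 0.05. The p53 targets have a median of 1.53 and hold the 2 red points, and the medians of the other lists lie between -0.51 and -0.09.

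*Psrc1* was also set beside genes that work with it in the spindle, most of which had the opposite sign. Of 22 spindle microtubule regulators, 21 were tested and none was called (background 0.129%), 18 were below 0, as under every scaling tried (background 58%), and the median log2 fold change was -0.51 against -0.09 over all genes tested. *Kif2a*, the microtubule depolymerase that PSRC1 is known to bring to the spindle, was at 17.2, 18.7 and 20.6 RPKM and at 13.8, 14.3 and 18.5 RPKM, with overlapping groups and a log2 fold change of -0.27 (limma adjusted p = 0.720). Its relative *Kif2c* was at 33.1, 38.8 and 34.2 RPKM with sg*Trp53* and at 6.94, 21.5 and 31.1 RPKM with sg*Kmt2c*, lower in all 3, with a log2 fold change of -1.02 (limma adjusted p = 0.621). *Ska2*, part of a complex that ties kinetochores to microtubules, was also lower in all 3, at 6.36 to 9.65 against 13.8 to 18.6 RPKM, with -0.84 (limma adjusted p = 0.450). In 5 of the 21 the sg*Kmt2c* lines lay below all sg*Trp53* lines (background 10.4%) and in none above (background 5.72%). Single lines weighed on this list, whose median was -0.20 without sg*Kmt2c* replicate 1.

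The relatives and partners of the neighbours were read in the same way, and none was called (background 0.129%), a count that lists of this size would mostly give at that background. Of 15 planar cell polarity genes 12 were tested, with a median of -0.34, which was -0.20 without sg*Kmt2c* replicate 1. The largest differences were those of *Dvl2*, which encodes a dishevelled scaffold protein (-0.71, limma adjusted p = 0.608), and *Ankrd6* (-0.67, limma adjusted p = 0.722). *Celsr1*, another cadherin of the family, varied from 1.26 to 8.06 RPKM and from 0.466 to 15.8 RPKM. *Celsr3* was at or below 0.530 RPKM with sg*Trp53* and at 0 with sg*Kmt2c*.

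Of 19 sortilin relatives, cargo and sorting partners 15 were tested, with a median of -0.10, which turned to 0.01 without sg*Kmt2c* replicate 2. The sortilin relative *Sorl1* was higher in every sg*Kmt2c* line, at 11, 40.0 and 16.8 against 10.7, 1.35 and 2.75 RPKM, with a log2 fold change of 2.14, while *Sort1* itself was at -1.09. Sg*Trp53* replicate 1 lay just below the lowest sg*Kmt2c* line, and *Sorl1* did not pass correction (limma adjusted p = 0.493). *Lpl*, the lipoprotein lipase, was at 8.73, 4.2 and 8.75 RPKM and at 0, 0 and 3.92 RPKM, with -2.22 (limma adjusted p = 0.465). For *Apob*, the protein of LDL particles, levels ran from 11.8 to 48.8 RPKM with sg*Trp53*, while the sg*Kmt2c* lines stood at 4385, 0.243 and 129 RPKM, the widest spread of the list.

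The other 20S proteasome subunits, the partners of *Psma5* in the complex, also had values below 0. This held for all 14 tested of 16, under every scaling tried (background 58%), from -0.85 for *Psmb10* (limma adjusted p = 0.592) and -0.78 for *Psmb2* (limma adjusted p = 0.569) to -0.09 for *Psma3* and *Psmb5*, with a median of -0.42, and *Psma5* had -0.74. None was called (background 0.129%), and in 4 of the 14 all sg*Kmt2c* lines lay below all sg*Trp53* lines (background 10.4%). The 19 cytosolic aminoacyl-tRNA synthetases had a median of -0.09, the same as over all genes tested, and -0.23 without sg*Kmt2c* replicate 1, where all genes were at -0.04 and *Sars* at -0.44. The largest differences among them were those of *Kars* (-0.61, limma adjusted p = 0.542) and *Lars* (-0.52, limma adjusted p = 0.660). Of the 4 myosin-binding proteins related to *Mybphl*, 2 were in the table and neither reached the level for testing, with *Mybpc2* at 3.12 RPKM in sg*Trp53* replicate 1 and at or below 0.0801 RPKM elsewhere.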

How the data were processed

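RNA-seq of 6 liver tumor cell lines, 3 per genotype, was analysed, with groups taken from the labels. The authors trimmed reads with Trimmomatic, mapped them with STAR to GRCm38, used HTSeq for the counting per gene, and deposited the values as RPKM. The use of strand in counting is not given in the sources used here. The table's 6 other sample columns were not used. The authors' table of their own DESeq2 comparison (v1.8.2), which holds fold changes and p-values, was not used.

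Multiplied by transcript length, 100% of the RPKM values above 0 were whole multiples of 1 read (tolerance 0.01 of a read), which gave the reads. Tests were made with limma 3.58.1 under R 4.3.3 (lmFit, eBayes with trend) on log2(RPKM + 1), for 11617 genes at or above 1 RPKM in 3 or more libraries, with Benjamini-Hochberg adjustment. Fold changes on this scale understate those of low genes. Other pseudocounts, filters and scalings, TPM, voom on the recovered reads, a replicate block and leaving out each line were tried as alternatives, and the fits were tested on simulated data. Permutation tests used scipy 1.17.1, and with 3 lines against 3 cannot go below 0.1. The limma and voom p-values set the difference between the groups against the spread within them, moderated over all genes. Each line has a single library, so spread between lines and between libraries cannot be told apart.

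Named were the 6 genes, *Trp53*, *Kmt2c*, *Myc*, the 4 listed genes nearest to *Psrc1* on each side, called genes within 1 Mb, the called genes of each list or else the 2 with the largest change, and the 5 genes most like *Psrc1*. Other genes were named after their values were seen. The members and lists were chosen with earlier results of these data known.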

Additional observations from a re-analysis of the deposited data

How the results depend on the processing

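None of the 16 alternatives called a neighbour of *Psrc1* or any other gene within 1 Mb of it. Some of them called no gene at all, so for these the result was fixed in advance. They were the replicate block, the averaged replicates, and each left-out line except sg*Kmt2c* replicate 1. The log2 fold change of *Psrc1* lay between 2.81 and 3.12, the latter with voom, and those of *Sort1* (-1.60 to -0.67) and *Psma5* (-1.03 to -0.44) kept their direction. Averaging sg*Kmt2c* replicates 2 and 3 into 1 sample turned *Celsr2* to -0.10 and *Sars* to 0.09. Leaving out single lines gave -1.09 to 0.87 for *Celsr2* and -0.44 to 0.19 for *Sars*. The median of the genes within 1 Mb was -0.36 under median-of-ratios scaling and -0.51 to -0.43 without single lines. The count of called genes in the lists, 2 in the fit as reported, was 1 with a pseudocount of 0.1 or 0.5, with no filter on low values, with TPM and with voom, 4 with quantile normalization, 3 with median-of-ratios scaling, 0 with those replicates averaged, and 0 to 1 without single lines. Over all genes tested, the 15 calls became 6 with a pseudocount of 0.1, 5 with no filter on low values, 3 with voom, 16 with quantile normalization, 20 with no mean-variance trend, 0 with those replicates averaged, 8 without sg*Kmt2c* replicate 1 and 0 without any other line. The cause was not tested.

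With the replicate block the list count was 0 and no gene of the 11617 was called, against 15 without it. At an unadjusted p under 0.05 the block counted 1085 genes and the fit without it 997. Deviations from the group means correlated by 0.192, 0.399 and 0.0316 between libraries of the same number, and 4 of the 6 libraries correlated best with their own number, and no label ties lines of the same number. As 1 of the 3 correlations was under 0.1, the numbers were not taken to pair the lines, and a shared batch was not tested. The log2 fold changes of the neighbours are the same with the replicate block, with adjusted p of 0.455 for *Sort1* and 0.504 for *Psma5*.

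*Sort1* rested on 20 to 40 reads in the sg*Kmt2c* libraries, and *Mybphl* on none.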
